A study of Mus musculus with 3 samples.

Results

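The genes described here encode neuronal adhesion molecules, most of them with immunoglobulin-like (Ig) or leucine-rich extracellular domains. The neurexins, neuroligins and Cntnap proteins on the list have neither. The genes were chosen by name, as a list of 46 mouse symbols. All 46 matched 1 row each among the 41388 Ensembl genes of the deposited tables. RNA sequencing was done on 3 pools of dorsal root ganglion (DRG) cells from mouse embryos at 12.5 dpc, sorted by flow cytometry for green fluorescence from Ret-EGFP, which marks cells that use Ret, the gene of a GDNF family receptor. Library D came from 60 ganglia of 3 embryos, library B from 340 ganglia of 17 embryos and library C from 300 ganglia of 15 embryos. All were taken between segments T11 and S1 of C57BL/6 embryos of both sexes. The genotype label names a transgene, Tg(Ret-EGFP)SJ/, whereas the series text describes heterozygotes with EGFP knocked into Ret, and the sources used here do not settle which. Each library is a pool of embryos from different mothers, so differences between single embryos cannot be seen, and there is no second condition.

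Adhesion molecules of this kind sit on axons and growth cones, where they bind like molecules or set partners on neighbouring membranes. L1 family proteins and contactins hold axons together in fascicles and help them extend, and contactins with their associated Cntnap partners later organise the membrane around nodes of Ranvier. Neurexins, neuroligins, LRRTM and SLITRK proteins act mainly across synapses, with neurexins on the sending side and neuroligins and LRRTMs as their binding partners. In embryonic DRG, L1 and the contactin TAG-1, encoded by Cntn2, are known on growing sensory axons.

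Total counts were 20966139 in D, 18072199 in B and 11666241 in C. All 12 neuron markers, such as Tubb3 and Stmn2, were at 1 TPM or more in every library, where TPM is a level per gene length, scaled to a fixed sum in each library. Of 12 markers of glia and Schwann cell precursors 11 were too, and of 10 spinal cord and motor neuron markers 1 was. Library D stood apart from B and C. On the TPM scale the median of 15727 tested genes was higher in D by 0.71 (log2), on the CPM scale (counts scaled to library size) by 0.27, and after TMM scaling in edgeR the median log2 ratio was -0.02. TPM values of D are therefore to be read against that shift. Levels by library below are TPM and are not corrected for it. The comparison of libraries by edgeR log2 ratios after TMM scaling is given further below. A gene can be higher in D by TPM and have a negative ratio, as Cntn2 did.

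The 46 genes together held 0.278% of counts in D, against 0.160% in B and 0.152% in C. At 1 TPM or more, 37 of 46 were detected in every library, which is 80.4%, beside 50.1% of all protein-coding genes and 82.1% of those whose counts averaged 10 or more. The median of their mean TPM was 5.80, against 2.11 TPM for all protein-coding genes and 10.3 TPM for those with that many counts. The 10 highest members carried 69.8% of the summed member TPM in D, 62.0% in B and 63.7% in C. Cntnap2, L1cam, Nptn, Cntn2 and Cadm1 led by mean TPM, but the order differed between libraries. Slitrk2 was highest in D, Nptn in B and Cntnap2 in C, and Cntnap2 ranked 9 of 46 in D and 2 of 46 in B. The plot of levels by family shows all of them. Another 9 were under 1 TPM in at least 1 library, and 4 of these in all 3.

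**Figure D1:**
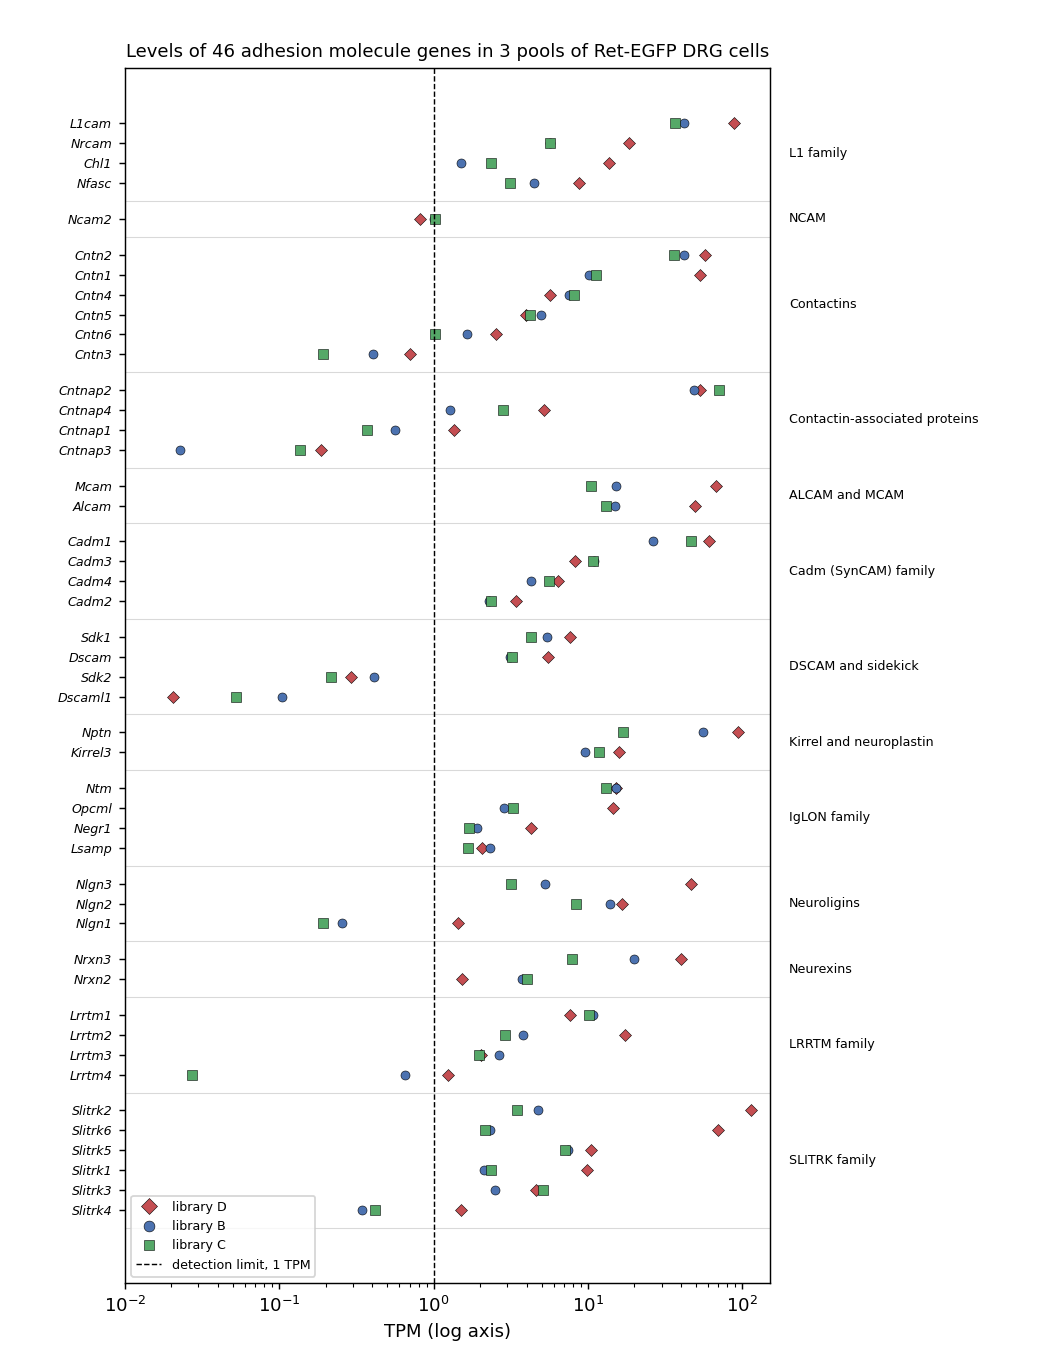
TPM of each of the 46 genes (log axis) in library D (diamonds), B (circles) and C (squares), grouped by family, with the detection limit of 1 TPM as a dashed line. Slitrk2 and Slitrk6 lie at 113 and 69.7 TPM in D and under 5 TPM in B and C as TPM, a scale on which the median gene is higher in D by 0.71 (log2).

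The L1 family was led by L1cam, whose product binds itself and other Ig molecules on axons. L1cam (ENSMUSG00000031391, chromosome X, 73853778 to 73896105, GRCm38) stood at 88.5 TPM in D, against 41.6 in B and 36.8 in C, a mean of 55.7 ± 28.6 TPM (SD, n = 3). Nrcam, which encodes an ankyrin-binding relative found at nodes of Ranvier, stood at 18.4 TPM in D and at 5.65 TPM in both B and C. Chl1, the close homolog of L1, had 13.7 TPM in D, against 1.5 in B and 2.34 in C. Nfasc, the gene of the nodal protein neurofascin, ran from 3.12 to 8.81 TPM. L1cam took 68.4% of the family TPM in D, 78.2% in B and 76.8% in C, and its log2 ratio over Nrcam was 2.60 ± 0.31 (SD, n = 3), above 0 in 3 of 3 libraries. Chl1 and Nfasc did not keep an order. Chl1 over Nfasc was 0.63 in D, -1.51 in B and -0.40 in C (log2).

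Cntn2 led the contactins, which are Ig proteins anchored to the membrane by a lipid. Cntn2 (ENSMUSG00000053024, chromosome 1, 132509427 to 132543256) stood at 56.9 TPM in D, 41.6 in B and 35.8 in C, a mean of 44.8 ± 10.9 TPM. Cntn1, whose product pairs with the Cntnap1 protein beside nodes, stood at 53.5 TPM in D, against 10.2 in B and 11.2 in C. Both were thus near the same level in D, where Cntn2 over Cntn1 was 0.09 (log2), against 2.02 in B and 1.67 in C. Cntn1 held 43.4% of contactin TPM in D, 15.3% in B and 18.5% in C. The other contactins followed in a fixed order in every library. Cntn4 had 5.70 TPM in D, 7.50 in B and 8.06 in C. Cntn5 averaged 4.38 ± 0.52 and Cntn6 1.74 ± 0.76 TPM, and Cntn3 stayed under 1 TPM.

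Among the Cntnap genes, Cntnap2 was far ahead of its relatives. It encodes Caspr2, which clusters potassium channels beside the node together with the Cntn2 product. Cntnap2 (ENSMUSG00000039419, chromosome 6, 45060061 to 47301369) stood at 52.9 TPM in D, 48.7 in B and 70.2 in C, the highest mean of the 46 genes at 57.2 ± 11.4 TPM. Its share of the family TPM was 88.8% in D, 96.3% in B and 95.5% in C. Cntnap4 had 5.16 TPM in D, 1.27 in B and 2.81 in C. Cntnap1, which encodes the Cntn1 partner Caspr, was at 1.35 TPM in D and under 1 TPM in B and C, and Cntnap3 had 7 counts in D, 1 in B and 4 in C.

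Of the Cadm genes, which encode SynCAM adhesion proteins of axons and synapses, Cadm1 stood at 60.8 TPM in D, 26.4 in B and 46.3 in C. Cadm3 averaged 10.0 ± 1.53 TPM with D lowest, at 8.26 TPM, against 11.0 in B and 10.8 in C. Cadm4 (5.39 ± 1.06 TPM) and Cadm2 (2.69 ± 0.65 TPM) were lower, and the order Cadm1, Cadm3, Cadm4, Cadm2 was the same in every library. Cadm4 exceeded Cadm2 per gene length but not in CPM. In CPM the mean log2 ratio of Cadm4 over Cadm2 was -1.16, since the counted Cadm4 is 2161 bases long and Cadm2 9809.

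Ntm led the IgLON genes, which encode small lipid-anchored Ig proteins. It had 15.1 TPM in D, 15.2 in B and 13.1 in C, while its CPM in D lay below both others. Opcml had 14.4 TPM in D, against 2.84 in B and 3.29 in C, so that Ntm over Opcml was 0.06 (log2) in D, 2.38 in B and 1.96 in C. Negr1 and Lsamp stood at 2.61 ± 1.42 and 2.01 ± 0.33 TPM and did not keep an order.

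Alcam and Mcam encode related Ig proteins, the first on many growing axons and the second known mainly from vessel walls and melanoma cells. Both were higher in D. Alcam had 49.3 TPM in D, 15.0 in B and 13.0 in C, and Mcam 67.3 TPM in D, 15.3 in B and 10.4 in C. Which of the pair was higher differed between libraries, with a mean log2 ratio of Mcam over Alcam of 0.05 ± 0.39 (SD, n = 3). Nptn encodes neuroplastin, an Ig protein that accompanies monocarboxylate transporters and calcium pumps. Nptn stood at 93.7 TPM in D, 55.9 in B and 16.8 in C. Its 3 values were far apart, and the gap between B and C was wider than that between D and B.

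Kirrel3, a relative of nephrin known for axon sorting in the olfactory system, had 15.8 TPM in D, 9.55 in B and 11.8 in C. Sdk1 and Dscam, whose products guide layer-specific wiring in the retina, came next. Sdk1 had 7.61 TPM in D, 5.40 in B and 4.27 in C. Dscam had 5.47 TPM in D, 3.12 in B and 3.20 in C. Their paralogs were scarce. Sdk2 stayed between 0.216 and 0.409 TPM. Dscaml1 was the lowest of all members, with 1 count in D, 6 in B and 2 in C. Ncam2, the second NCAM gene, lay at the detection limit with 0.821 TPM in D, 1.01 in B and 1.03 in C.

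Nrxn3 was higher than Nrxn2 in every library, though by unequal amounts. Nrxn3 stood at 40.2 TPM in D, 19.8 in B and 7.83 in C. Nrxn2 was lowest in D, with 1.53 TPM in D, against 3.75 in B and 4.00 in C. Nrxn3 held 96.3% of their summed TPM in D, 84.1% in B and 66.2% in C. The tables count whole genes, so long and short neurexin forms cannot be told apart.

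Among the neuroligins, the leading gene differed between libraries. Nlgn3 (ENSMUSG00000031302, chromosome X, 101299168 to 101325963) had 46.8 TPM in D, against 5.30 in B and 3.17 in C. Nlgn2, whose product is found at inhibitory synapses in the brain, had 16.7 TPM in D, 14.0 in B and 8.33 in C. Nlgn3 thus took 72.1% of neuroligin TPM in D, 27.2% in B and 27.1% in C. Nlgn1, known from excitatory synapses, had 1.43 TPM in D, 0.254 in B and 0.191 in C, from 48, 10 and 5 counts. Exons of Nlgn3 share 41.2% of its counted bases with the annotated gene Gm21986, so its counts are uncertain.

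The LRRTM genes, which encode leucine-rich neurexin partners, likewise had another leader in D. Lrrtm1 had 7.66 TPM in D, 10.8 in B and 10.1 in C. Lrrtm2 had 17.2 TPM in D, 3.78 in B and 2.91 in C. Their log2 ratio, Lrrtm1 over Lrrtm2, was -1.16 in D, 1.49 in B and 1.76 in C. Lrrtm3 stayed near 2 TPM, at 2.21 ± 0.39. Lrrtm4 had 59 counts in D, 36 in B and 1 in C, and 25.1% of its bases are shared with Gm4409.

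The SLITRK genes summed to 210 TPM in D, 19.5 in B and 20.6 in C, the widest gap of the 12 families. Their products carry leucine-rich repeats and bind receptor phosphatases of the LAR type on the opposite membrane. Slitrk2 (ENSMUSG00000036790, chromosome X, 66649318 to 66661393) had 7064 counts in D, 347 in B and 168 in C, which is 113, 4.76 and 3.47 TPM. Slitrk6 (ENSMUSG00000045871, chromosome 14, 110748578 to 110755149) had 2280 counts in D, 89 in B and 55 in C, or 69.7, 2.33 and 2.16 TPM. Both genes lay in a narrow range in B and C and far above it in D. Slitrk2 over Slitrk6 had a log2 ratio of 0.70 in D, 1.00 in B and 0.66 in C. Slitrk5 had 10.4 TPM in D, 7.43 in B and 7.04 in C, and led the family in B and C but not in D. Slitrk1 had 9.89 TPM in D, 2.11 in B and 2.35 in C. Slitrk3 ran from 2.50 to 5.14 TPM and Slitrk4 from 0.342 to 1.51 TPM. Without Slitrk2 and Slitrk6, which made up 18.1% of the summed member TPM in D, 1.68% in B and 1.46% in C, that sum was 829 TPM in D, 415 in B and 381 in C.

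Promoter windows of 300 bases, from 250 before to 50 after a transcript start, are shown for the 2 SLITRK genes that stood highest in D and for Slitrk5, which did not stand apart. They come from RefSeq on GRCm38.p6, from which windows of 37 of the 46 genes were kept. Capitals mark a GC box (GGGCGG) or a CCAAT box (CCAAT) on either strand. TATAAA, the E-box CANNTG and the SOX core ACAAAG were searched as well, on both strands, and are not capitalised.
Slitrk2, first start, chrX:66649068-66649367, plus strand: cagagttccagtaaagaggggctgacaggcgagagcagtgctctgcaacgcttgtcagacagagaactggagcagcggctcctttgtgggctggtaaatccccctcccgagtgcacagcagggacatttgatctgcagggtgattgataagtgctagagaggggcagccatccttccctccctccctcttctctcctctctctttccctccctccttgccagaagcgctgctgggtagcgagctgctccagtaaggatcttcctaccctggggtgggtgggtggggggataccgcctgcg
Slitrk2, second start, chrX:66652909-66653208, plus strand: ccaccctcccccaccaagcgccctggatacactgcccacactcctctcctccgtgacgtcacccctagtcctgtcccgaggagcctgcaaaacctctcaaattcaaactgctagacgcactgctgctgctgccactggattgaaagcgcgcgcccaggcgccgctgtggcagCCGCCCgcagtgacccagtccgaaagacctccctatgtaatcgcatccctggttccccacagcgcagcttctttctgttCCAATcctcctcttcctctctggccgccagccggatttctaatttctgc
Slitrk6, chr14:110755100-110755399, minus strand: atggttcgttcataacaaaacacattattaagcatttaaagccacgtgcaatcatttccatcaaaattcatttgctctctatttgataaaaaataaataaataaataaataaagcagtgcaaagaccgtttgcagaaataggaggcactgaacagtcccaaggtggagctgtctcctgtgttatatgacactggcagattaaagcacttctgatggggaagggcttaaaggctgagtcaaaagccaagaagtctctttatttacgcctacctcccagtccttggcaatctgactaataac
Slitrk5, chr14:111675777-111676076, plus strand: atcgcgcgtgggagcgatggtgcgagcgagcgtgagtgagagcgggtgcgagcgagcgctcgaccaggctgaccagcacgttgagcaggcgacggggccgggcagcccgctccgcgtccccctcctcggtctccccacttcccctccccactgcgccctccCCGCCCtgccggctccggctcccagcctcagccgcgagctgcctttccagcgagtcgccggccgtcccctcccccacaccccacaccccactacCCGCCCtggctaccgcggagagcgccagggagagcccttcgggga
The window at the first Slitrk2 start and that of Slitrk6 held neither box, with 8 and 4 CG pairs. The first Slitrk2 window held 1 CANNTG and 1 ACAAAG, the Slitrk6 window 2 CANNTG, and the other windows none of either. TATAAA was in none of the 4. The second Slitrk2 window held 1 GC box and 1 CCAAT box with 17 CG pairs, and the Slitrk5 window 2 GC boxes with 35. Of 32851 mouse windows of this length, 35.7% hold a GC box, 37.4% a CCAAT box, 13.6% TATAAA, 72.3% CANNTG and 18.7% ACAAAG, and the median number of CG pairs is 7. The counts do not show which start was used.

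To see whether the rank within a family was the same in each pool, neighbours in the order of mean TPM were compared within each library. Of 33 neighbour pairs in 12 families, 26 kept 1 direction in 3 of 3 libraries, and in 24 the mean log2 ratio also exceeded its SD. The order was set from these same libraries, which favours agreement, so both counts only describe these pools. With 3 libraries an exact sign-flip test, two-sided, has 0.25 as its smallest p (0.317 after Benjamini-Hochberg adjustment over the 33 pairs), so none can pass 0.05. Among pairs held in every library were Cntnap2 over Cntnap4 with 4.36 ± 0.93, Nlgn2 over Nlgn1 with 4.54 ± 0.97 and Dscam over Sdk2 with 3.29 ± 0.59 (log2, SD, n = 3). The same gene led in all 3 libraries in 8 of 12 families, and in B and C in 11 of 12. The families led by another gene in D than in both B and C were neuroligins, LRRTM and SLITRK, and in the Alcam and Mcam pair C differed. Ranked by counts in place of TPM, 8 of 12 families again had 1 leader, but not the same 8. By counts Alcam led Mcam in every library, Opcml led the IgLON genes in D, and Slitrk2 led SLITRK in B as well as D. In the plot of family shares, which uses TPM, neuroligins, LRRTM and SLITRK show a different leading colour in D. A ratio within a library does not depend on library scaling, but it still depends on the length and base composition of both genes. The difference in shares between D and the others was not tested.

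**Figure D2:**
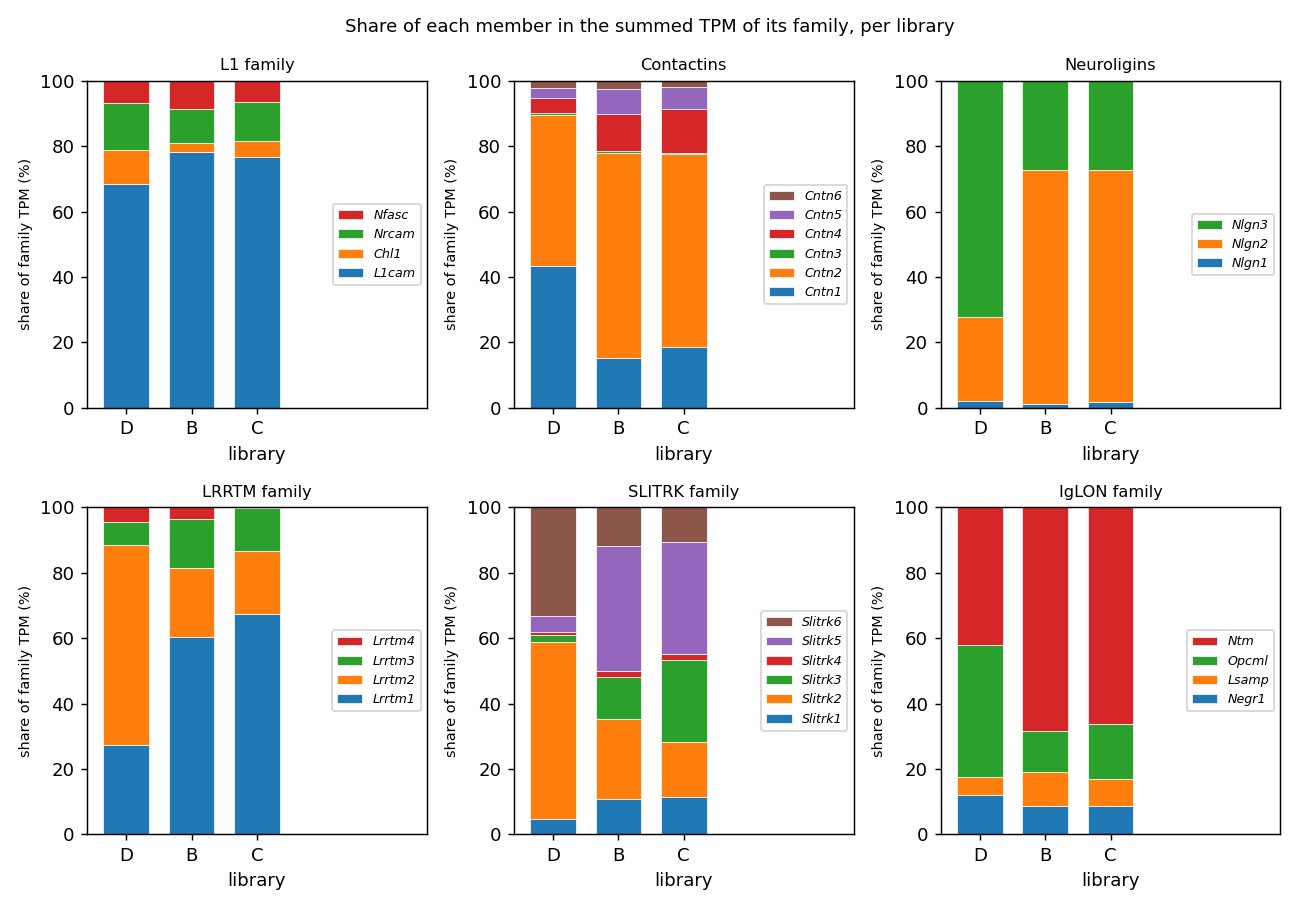
Share of each member in the summed TPM of its family, as stacked bars for libraries D, B and C, in 6 families. L1cam takes 68.4% to 78.2% of the L1 family throughout, while the largest part belongs to Nlgn3, Lrrtm2 and Slitrk2 in D and to Nlgn2, Lrrtm1 and Slitrk5 in B and C.

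An edgeR quasi-likelihood fit over all genes compared library D, the pool of 3 embryos, with the other pools. Of 44 members tested, 25 had a positive and 19 a negative log2 ratio, with a median of 0.35 beside -0.02 over all 15727 genes. The highest were Slitrk6 with 4.25 ± 0.47 (approximate SE), Slitrk2 with 4.09 ± 0.44, Nlgn3 with 2.77 ± 0.49, Chl1 with 2.12 ± 0.53, Nlgn1 with 1.96 ± 0.92 and Mcam with 1.69 ± 0.47. The lowest were Nrxn2 with -2.04 ± 0.54, Lrrtm1 with -1.15 ± 0.54, Cntn4 with -1.15 ± 0.50 and Cadm3 with -1.10 ± 0.50. Of the genes with the highest mean TPM, Cntnap2 had -0.88 ± 0.48, L1cam 0.47 ± 0.41, Cntn2 -0.14 ± 0.42 and Cadm1 0.03 ± 0.51. In 16 of 44 members the ratio was smaller than its approximate SE, as the plot of ratios shows. In bulk pools a smaller share of cells with a transcript and less of it per cell cannot be told apart.

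**Figure D3:**
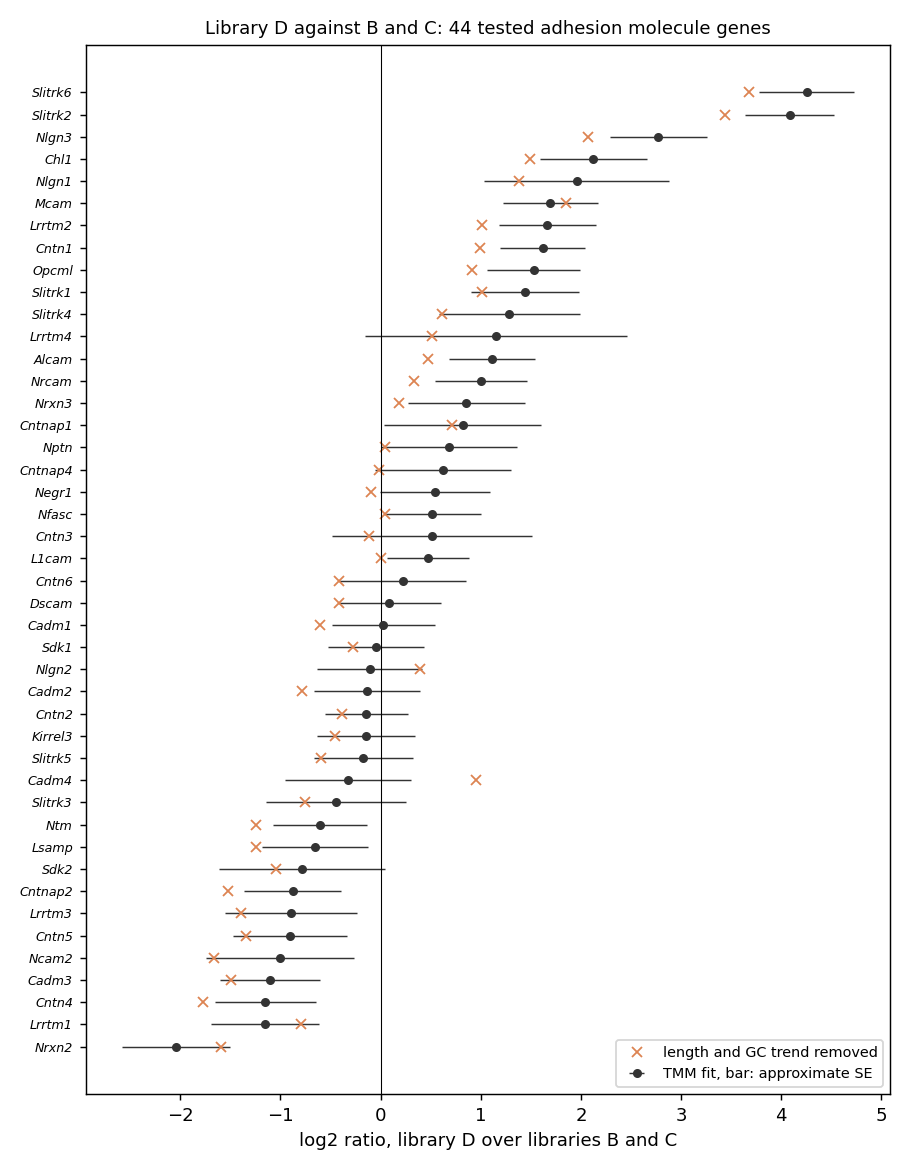
Log2 ratio of library D over libraries B and C for the 44 tested genes (points, with bars for the approximate SE), and the same ratio after correction for gene length and GC (crosses). Slitrk6 and Slitrk2 stand above 4 with TMM scaling and above 3 with the trend removed, and 39 of 44 crosses lie to the left of their points.

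No member passed at an adjusted p of 0.05 by edgeR's quasi-likelihood test with Benjamini-Hochberg adjustment (0 of 44, against 0% of all genes), the smallest adjusted p being 0.167 for Slitrk2, Slitrk6 and Nlgn3. With 1 residual degree of freedom, D is taken to vary as much as B and C do. Unadjusted p was under 0.05 for 11 members, 10 of them higher in D (22.7%, against 11.2% of all genes) and 1 lower (2.27%, against 8.22%). The 10 were Slitrk2, Slitrk6, Nlgn3, Chl1, Cntn1, Mcam, Lrrtm2, Opcml, Slitrk1 and Alcam, and the 1 was Nrxn2. Other settings made calls at an adjusted p of 0.05. Shares of all genes given for them are over the genes with an adjusted p in each setting, 11680 in DESeq2. With DESeq2's size factors in edgeR 2 members passed, Slitrk2 and Slitrk6, against 0.0509% of all genes. DESeq2 called 5, adding Nlgn3, Chl1 and Nrxn2 to those 2, against 5.89%. Without a filter on low counts 7 passed, those 5 with Cntn1 and Mcam, against 6.51%.

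Gene length moved with these ratios. Across the 15727 genes (genes are not replicates), Spearman's rho of the D ratio was 0.40 with length and -0.34 with GC content. The 46 members had a median length of 6612 bases, against 3645 for all genes whose counts averaged 10 or more. The median ratio of all genes was -0.82 up to 1500 bases, 0.16 from 3000 to 5000 bases and 0.69 above 8000 bases. In that last bin the 16 members had a median of -0.01, and in the bin from 5000 to 8000 bases the 18 members had 0.53 beside 0.48 for all genes. From 3000 to 5000 bases the 9 members had -0.17. The 1 member from 1500 to 3000 bases had -0.33 beside -0.54 for all genes. With a smooth trend of length and GC removed, the members' median was -0.06, and 20 were positive and 24 negative. Slitrk6 and Slitrk2 kept 3.68 and 3.44, Nlgn3 2.07, Mcam 1.86 and Chl1 1.49, while Nrxn2 had -1.59. Unadjusted p was then under 0.05 for 5 higher members, those 5, against 7.8% of all genes. It was also under 0.05 for 5 lower members, Nrxn2, Cntn4, Cntnap2, Cadm3 and Ntm, against 4.91%. Both are 11.4% of the 44 members, and none passed after adjustment.

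**Figure D4:**
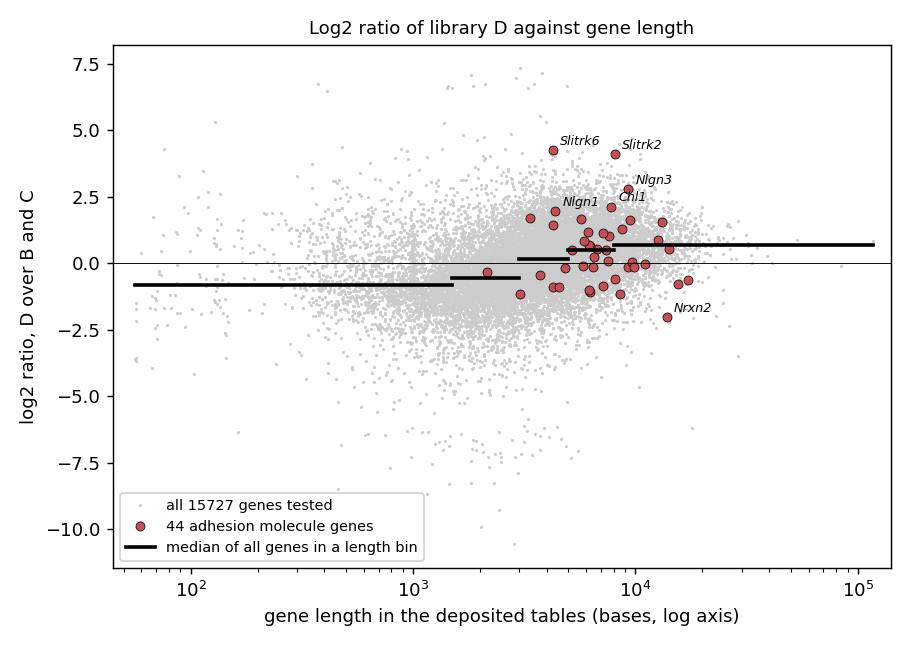
Log2 ratio of library D over B and C against gene length (log axis) for 15727 tested genes (grey) and the 44 tested adhesion genes (red), with black lines for the median of all genes in 5 length bins. The bin medians run from -0.82 at the shortest to 0.69 at the longest genes, and Slitrk6, Slitrk2 and Nlgn3 lie above the line of their bin.

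The position of D relative to B and C was also counted without a model. In CPM, D lay above both for 28 of 44 members (63.6%, against 49.7% of 14535 genes averaging 10 or more counts) and below both for 11 (25%, against 31.8%). After TMM scaling D was above both for 23 (52.3%, against 43.9%) and below both for 15 (34.1%, against 37.9%). With the length and GC trend removed it was above both for 15 (34.1%, against 40.2%) and below both for 21 (47.7%, against 36.6%). With that trend removed, more members thus lay below both than above both.

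Markers of other cells differed in the same libraries. In CPM, D lay above both B and C for 10 of 12 glia and Schwann cell precursor markers and below both for none. Their summed level was 5118 TPM in D, 3189 in B and 1634 in C, and none of the 12 was at 0 in any library. Most of that sum came from Ednrb and Fabp7. Ednrb had 2138 TPM in D, 375 in B and 254 in C, while Fabp7 had 2017 TPM in D, 2487 in B and 1088 in C. Erbb3, the neuregulin receptor gene of Schwann cell precursors, had 163 TPM in D, 14.2 in B and 9.06 in C. Of 12 neuron markers 8 lay below both in D and 1 above, with a sum of 25263 TPM in D, 40094 in B and 31884 in C. Mesenchyme markers summed to 291 TPM in D, 55.3 in B and 44.6 in C, of which Postn alone had 193 TPM in D, 24.0 in B and 19.9 in C. Of these 10 markers 5 lay above both and 3, Col1a1, Pdgfrb and Dcn, below both, with Twist2 at 0 in C. Neural crest markers summed to 52.6 TPM in D, 23.7 in B and 12.4 in C, with 3 of 6 above both and 1, Twist1, below both. Over all genes 49.7% lay above both and 31.8% below both. Endothelium markers summed to 5.86 TPM in D, 17.1 in B and 4.79 in C, with Tek at 0 in C. Only 1 of these 8 was at 1 TPM or more in every library, and 1 lay above both in D and 4 below both. Erythroid markers summed to 408 TPM in D, 2864 in B and 1578 in C, with all 10 below both in D. Sympathetic and chromaffin markers summed to 136 TPM in D, 362 in B and 266 in C, with 1 of 11 above both in D and 8 below both. Macrophage markers summed to 47.5 TPM in D, 103 in B and 63.0 in C, but were mixed, with 3 of 10 above both in D and 5 below both. The part of these cells in the ratios of Slitrk2, Slitrk6, Nlgn3, Chl1 and Mcam was not tested.

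Libraries B and C could also be set apart. Against C and D, library B had 0 members past the adjusted threshold, against 0% of all genes, and 2 at an unadjusted p under 0.05 (4.55%, against 1.11%). Against B and D, library C likewise had 0 of 44, against 0.782% of all genes, and 4 at an unadjusted p under 0.05 (9.09%, against 6.91%). DESeq2 called none in either. D entered both fits. Those genes were Slitrk2 and Slitrk6 in B, and the same pair with Nlgn3 and Lrrtm4 in C, all with negative ratios. The shares of all genes given beside them count both directions, so they are not shares of lower genes. Between B and C, the widest TPM folds of members detected in every library were 3.32 for Nptn and 2.53 for Nrxn3, both higher in B, while Cntnap4 had a fold of 0.45 and Slitrk3 0.49. Nptn had 3111 counts in B and 623 in C.

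Genes that work with these molecules were looked up in 5 groups of 91 genes. In every library 76 of the 91 reached 1 TPM, beside 82.1% of protein-coding genes averaging 10 or more counts and 50.1% of all protein-coding genes. At 1 TPM or more in every library, 14 of 17 ankyrin, spectrin, 4.1 and ERM linkers were detected, 14 of 19 PDZ scaffolds, 15 of 18 surface partners, 28 of 31 other Ig and leucine-rich molecules, and 5 of 6 sheddases and polysialic acid enzymes. None of the 91 passed in D by edgeR's adjusted p, while 21 were under 0.05 before adjustment (23.1%, against 19.4% of all genes) and DESeq2 passed 10 (11.0%, against 5.89%). These shares count genes higher and lower in D together. The 5.89% is over the 11680 genes with an adjusted p in DESeq2, while the 11.0% is over all 91. The 91 had a median log2 ratio of 0.24 in D, which was 0.01 with the length and GC trend removed.

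Linkers to the membrane skeleton were led by Msn, the gene of moesin, with 261 TPM in D, 23.0 in B and 35.7 in C, and by the 4.1 family gene Epb41l3 with 191 TPM in D, 56.6 in B and 50.4 in C. Lin7c and Cask encode parts of a PDZ complex that binds neurexin tails. Lin7c had 245 TPM in D, 31.0 in B and 27.3 in C, and Cask 99.4 TPM in D, 26.1 in B and 16.7 in C. Lin7b, of the same complex, had the lowest ratio of the 91, at -2.89 ± 0.82 (approximate SE), with 2.84 TPM in D, 8.19 in B and 17.6 in C. Surface partners were led by a secreted neurexin ligand and a LAR-type phosphatase. The ligand gene Cbln2 had 61.5 TPM in D, 42.3 in B and 86.3 in C, and the phosphatase gene Ptprs 77.3 TPM in D, 68.7 in B and 36.7 in C.

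Of the other leucine-rich genes Lrrn1 had 76.1 TPM in D, 32.0 in B and 54.3 in C, and Flrt3 had 124 TPM in D, 19.9 in B and 9.22 in C. Kirrel, a paralog of Kirrel3, had the highest ratio of the 91, at 3.25 ± 0.52, with 15.7 TPM in D, 1.22 in B and 0.804 in C. Adam10, the gene of a protease that sheds L1, had 123 TPM in D, 23.2 in B and 18.4 in C. All 6 genes of the group of sheddases and polysialic acid enzymes had positive ratios in D, against 49.5% of all genes. Their median was 1.06 (log2), and it was not computed with the length and GC trend removed.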

How the data were processed

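The authors deposited 1 table per library with raw counts, CPM and RPKM for 41388 Ensembl genes and a gene length. Per the submitters' processing notes, Subread, featureCounts 1.4.5 and GRCm38.p2 were used, without roles. No annotation release or strand setting is given in the sources used here, and the kit in the labels' protocols does not mark strand, so the 8 members that share exon bases with another gene are uncertain. In the deposited tables CPM is the count over the file total and RPKM is that CPM per kilobase. Only counts and lengths were used here.

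TPM was computed over all genes of a file. Log2 ratios between genes used a pseudocount of 0.1 TPM. Libraries were compared with edgeR 4.0.16 (filterByExpr, TMM, quasi-likelihood test, Benjamini-Hochberg threshold 0.05) under R 4.3.3, and DESeq2 1.42.0 as an alternative. The approximate SE is the absolute log2 ratio over the square root of F. The length and GC trend was fitted per library with mgcv 1.9.3 on genes averaging 10 or more counts. GC content was read from each gene's longest transcript in GENCODE M21, known for 99.0% of genes with a count, and the median stood in for the rest. The TMM fit of D and the removal of a length trend were checked on simulated counts. The other fits, and those of B and C, were not. The simulated trend followed length alone and not GC, and the counts in that check varied only by counting noise. No pair of libraries agreed within sampling noise (chi-square per degree of freedom 147 to 353), so each counts as 1 sample. P-values measure only the spread between these pools. Counting error alone allows up to 3 counts behind a 0.

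Symbols matched 40254 identifiers. Every member is accounted for. By library, values are given for the 2 highest members of each family by mean TPM, the 6 highest and 4 lowest ratios in D and any member past the threshold, and by range for members under the limit. Of the 91 related genes, the 2 highest of each group by mean TPM and the 2 with the largest absolute ratio in D are named, except 1 that is not reported here. The members, lists and tests were chosen with earlier results of these data known. Genes mentioned outside these rules (Erbb3, other values by library, the B over C folds and the pairs quoted for their order) were picked after their values were seen.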

Additional observations from a re-analysis of the deposited data

How the results depend on the processing

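At a limit of 5 TPM in place of 1 TPM, 17 members and 40 related genes were detected in every library, against 37 and 76. For D the TMM fit called 0 members. DESeq2 called 5, the unfiltered fit 7 and edgeR on DESeq2's size factors 2, and the cause was not tested. The median log2 ratio of members in D, 0.35, was -0.057 with the length and GC trend removed, and ranged from 0.18 to 0.38 when C or B was left out. Members above both B and C in D came to 15 with that trend removed, against 28. Without a library, 21 to 27 neighbour pairs held and 37 to 38 members were detected, against 24 and 37. The pairs kept the order set with every library included. Sign changes in D under the trend correction were L1cam -0.00079, Cntn3 -0.11, Cntn6 -0.42, Cntnap4 -0.021, Cadm1 -0.60, Cadm4 0.95, Dscam -0.41, Negr1 -0.093 and Nlgn2 0.39. Cadm1 was -0.014 with DESeq2's size factors and Sdk1 0.0016 with no filter. None of these 11 values was called. Cadm4 over Cadm2 was -1.16 in CPM, which leaves out length. Over the 4 other fits, 151 of 176 single member ratios of D kept their sign and side of the threshold, 14 were newly called and 11 had the opposite sign. When B or C was left out, which allows no test, 6 of 88 had the opposite sign: Cadm1 -0.36, Sdk1 0.083 and Nlgn2 0.25 without B, and Cntn6 -0.040, Kirrel3 0.068 and Slitrk3 0.22 without C. No paired analysis was possible because all libraries form 1 group. Leaving out B or C from the D comparison left 1 library against 1, values with no test. At 1 to 7 counts per library, Dscaml1 and Cntnap3 were too low to compare.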
